A study of Mus musculus with 12 samples.

Results

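Map2 and 9 other genes named for neurons were followed through 12 RNA sequencing libraries of primary mouse embryonic fibroblasts. The set is Map2, Map1b, Mapt, Tubb3, Stmn2, Nefl, Nefm, Ncam1, Penk and Gfra2, 10 of the 24054 genes of the table, and all 10 passed the filter for low counts that left 14876 genes for testing. The set was chosen by the measured levels of Map2, Penk and Gfra2, which differed between the Blm KO libraries and the others, and the other 7 were added as further neuronal genes. Comparisons with a Blm KO library are therefore a description with no test, and only comparisons among the other 9 libraries were tested.

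The cells had 4 genotypes, each with 3 libraries and numbered by replicate: Blm KO (Blm -/-), Blm Recql KO (Blm -/- Recql -/-, called double KO here), Recql KO (Recql -/-) and WT. Blm and Recql encode RecQ family DNA helicases, and the series asks which transcripts change when either or both are missing. All cells were kept at 3% O2 and 5% CO2 in medium with 10% fetal bovine serum, no other agent is named, and the labels give neither the targeted alleles nor the age of the embryos. No label ties a library to an embryo or culture of its own, and a p-value here thus reflects library-to-library spread, some of it possibly technical.

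Neurons hold their long processes open with bundled microtubules. MAP2 coats those of dendrites, tau and MAP1B those of axons, class III beta-tubulin is a neuron-enriched building block of the polymer, and stathmin-2 destabilises it in growth cones. In cells that are not neurons many such genes are held down by a silencing complex that the factor REST recruits to the RE1 element, yet cultured fibroblasts are known to carry some of these transcripts.

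Promoters of 3 of the 10 genes, Map2, Map1b and Tubb3, were held in the RefSeq table of build GRCm38.p6, and all 3 are shown. A link between promoter sequence and the levels below was not tested. Each window covers 250 bases before and 50 bases after the start, 300 in all, on the strand of the gene. Capitals mark the GC box GGGCGG, the CCAAT box and the TATA box TATAAA on either strand. The windows are chr1:66175079-66175378 on the plus strand for Map2, chr13:99516553-99516852 on the minus strand for Map1b and chr8:123411303-123411602 on the plus strand for Tubb3.
Map2: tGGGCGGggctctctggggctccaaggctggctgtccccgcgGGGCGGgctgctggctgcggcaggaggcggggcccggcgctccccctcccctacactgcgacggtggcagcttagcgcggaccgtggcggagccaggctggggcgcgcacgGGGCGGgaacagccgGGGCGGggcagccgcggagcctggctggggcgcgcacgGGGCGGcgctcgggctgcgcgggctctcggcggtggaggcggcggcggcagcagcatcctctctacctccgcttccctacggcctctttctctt
Map1b: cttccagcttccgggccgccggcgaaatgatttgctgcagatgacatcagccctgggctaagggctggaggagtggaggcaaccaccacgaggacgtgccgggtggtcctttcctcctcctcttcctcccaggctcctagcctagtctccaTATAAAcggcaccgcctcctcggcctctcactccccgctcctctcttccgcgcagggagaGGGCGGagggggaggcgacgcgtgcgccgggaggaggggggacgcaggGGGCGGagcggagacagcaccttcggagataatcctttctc
Tubb3: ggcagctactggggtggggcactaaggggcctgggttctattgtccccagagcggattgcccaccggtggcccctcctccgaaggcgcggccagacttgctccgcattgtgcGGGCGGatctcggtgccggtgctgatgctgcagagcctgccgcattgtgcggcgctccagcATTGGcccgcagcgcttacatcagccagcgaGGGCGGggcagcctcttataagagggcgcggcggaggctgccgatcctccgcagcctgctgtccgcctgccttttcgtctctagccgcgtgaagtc
The Map2 window was 77.7% G and C, against 65.7% for Map1b, 67.3% for Tubb3 and a median of 52.7% over 32851 promoters of the same length. It held 5 GC boxes and none of the other motifs searched. Map1b had 2 GC boxes and 1 TATA box, and Tubb3 had 2 GC boxes and 1 CCAAT box, read here as ATTGG. A GC box stood in 35.7% of all promoters, a CCAAT box in 37.4% and a TATA box in 13.6%. The cyclic AMP response element TGACGTCA (1.79% of promoters), the left part of RE1 (TTCAGCACC, 0.371%) and its right part (0.137%) were in none of the 3 windows. Both strands were searched for each motif, and no match overlapped a match of another motif in these windows.

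Library totals were 47758552 to 59296354 expected counts, so that 3 counts were worth 0.0508 to 0.0614 CPM, the unit of levels used throughout (counts set against the library total, adjusted by the trimmed mean of M values, TMM). The Blm transcript was low in both groups labelled for its loss, at 3.18 to 5.64 CPM in Blm KO and 3.85 to 6.99 in double KO, against 14.3 to 16.4 in the libraries labelled Recql KO and 18.6 to 21.9 in WT. Recql was not lowered, with 18.7 to 35.6 CPM in the libraries labelled double KO and 21.7 to 29.8 in those labelled Recql KO, against 25.7 to 29.3 in WT. Recql KO and double KO thus serve only as names of libraries, and each direction given for them rests on those names. Y-linked transcripts were high in all 3 WT libraries (229 to 257 CPM in sum) and in 1 library of each other label, namely Blm KO replicate 1, double KO replicate 2 and Recql KO replicate 1. The other 6 had 0.676 to 28.7 CPM, the highest of them Recql KO replicate 2. Xist, the X-inactivation RNA, ran the other way, at 310 to 473 CPM in those 6 and 0.111 to 11.7 in the libraries high in Y-linked transcripts. Recql KO replicate 2 thus held both kinds, with Xist at 310 CPM. Libraries labelled Recql KO also lay apart on the first principal component, at 55.6 to 60.4 against -41 to -4.53 for the other 9.

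Map2 was the most graded of the 10 genes. It read 213, 395 and 348 CPM in Blm KO, 111, 83.1 and 118 in the libraries labelled double KO, 42.7, 23.3 and 32.3 in those labelled Recql KO and 68.4, 35.6 and 51.6 in WT. Every Blm KO library lay above the other 9, every double KO library lay above every Recql KO and WT library, and the last 2 groups overlapped. The means were 319 ± 94.2 in Blm KO, 104 ± 18.5 in double KO, 32.8 ± 9.75 in Recql KO and 51.8 ± 16.4 CPM in WT (SD, n = 3 each), so the highest mean was 9.73-fold above the lowest. In bulk RNA, fewer cells that express a gene and less of its RNA per cell cannot be told apart.

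Of this order, the comparisons without a Blm KO library were tested. Between the libraries labelled double KO and those labelled Recql KO, Map2 was 3.18-fold higher (edgeR adjusted p = 0.0039, log2 fold change 1.67 ± 0.30 SE), a call that held whichever library was left out. Set against WT, the libraries labelled double KO differed by 1.01 ± 0.30 on the log2 scale, which did not pass (edgeR adjusted p = 0.254), although DESeq2 called it (adjusted p = 0.0316, with 0.0316 to 0.541 over all alternatives). Recql KO against WT gave -0.66 ± 0.30 (edgeR adjusted p = 0.118). Restricted to the high-Y libraries, 1 for each KO label, the difference between double KO and Recql KO was 0.95 and did not pass (edgeR adjusted p = 0.307). The Map2 level of the high-Y library in each KO group was 213 CPM in Blm KO, 83.1 in double KO and 42.7 in Recql KO, the lowest, the lowest and the highest of its group, against 35.6 to 68.4 CPM in WT.

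**Figure D1:**
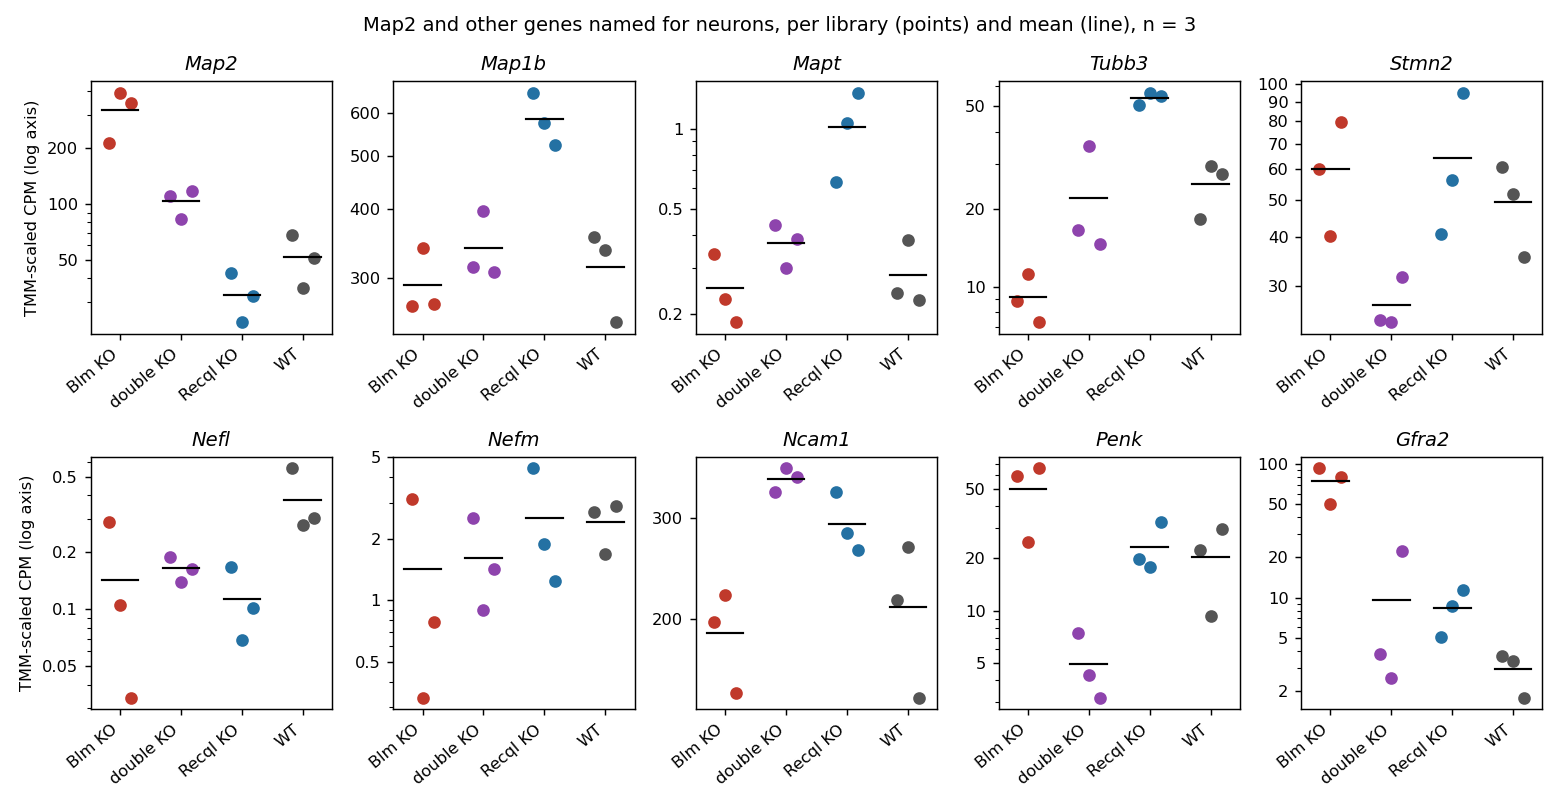
TMM-scaled CPM (log axes, each with its own range) of the 10 genes in each library, with a line at the mean of the 3 libraries of a label. Map2 and Gfra2 are highest in the 3 Blm KO libraries, Tubb3 is lowest there, and Map1b, Mapt and Tubb3 are highest in the 3 libraries labelled Recql KO.

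The microtubule genes Map1b, Mapt and Tubb3 stood highest in the libraries labelled Recql KO. Map1b, whose product binds microtubules in growing axons, read 266, 340 and 269 CPM in Blm KO, 314, 397 and 308 in the libraries labelled double KO, 653, 575 and 524 in those labelled Recql KO and 356, 337 and 249 in WT. The 3 Recql KO libraries lay above the other 9, and the other 3 groups overlapped one another. Map1b was 1.86-fold higher in Recql KO than in WT (log2 fold change 0.90 ± 0.16 SE, edgeR adjusted p = 0.00285). In double KO it was lower than in Recql KO by a log2 fold change of -0.78 ± 0.16 (edgeR adjusted p = 0.00624).

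Mapt, which encodes tau, was close to the detection limit but followed the same order. It read 0.339, 0.228 and 0.187 CPM in Blm KO, 0.434, 0.299 and 0.384 in the libraries labelled double KO, 0.63, 1.05 and 1.37 in those labelled Recql KO and 0.24, 0.38 and 0.227 in WT, from 11 to 67 counts a library. The Recql KO libraries again lay above all others, while Blm KO, double KO and WT overlapped. Mapt rose in Recql KO against WT (log2 fold change 1.83 ± 0.38, edgeR adjusted p = 0.00569), and in double KO it was lower than in Recql KO (-1.45 ± 0.37, edgeR adjusted p = 0.0172). The first call held whichever library was left out. The second was lost without double KO replicate 2, Recql KO replicate 2 or Recql KO replicate 3 (edgeR adjusted p = 0.0505, 0.0537 and 0.0668).

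Tubb3, the class III beta-tubulin gene, ran opposite to Map2. It read 8.85, 11.3 and 7.33 CPM in Blm KO, 16.7, 35.2 and 14.7 in the libraries labelled double KO, 50.8, 56.6 and 55 in those labelled Recql KO and 18.4, 29.5 and 27.3 in WT. All Blm KO libraries lay below the other 9, all Recql KO libraries lay above the other 9, and double KO and WT overlapped. Tubb3 rose 2.16-fold in Recql KO against WT (log2 fold change 1.11 ± 0.31, edgeR adjusted p = 0.0213), a call lost without Recql KO replicate 2 (0.0598) or WT replicate 1 (0.0716). Between double KO and Recql KO the value was -1.29 ± 0.31 (edgeR adjusted p = 0.0132), and this call held whichever library was left out. Tubb3 shares its span with the readthrough gene model Gm20388 on the same strand, and its expected counts were not whole in 11 of 12 libraries, so some of its reads were split between gene models.

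Stmn2, the stathmin-2 gene, was low in double KO. It read 60.3, 40.3 and 79.6 CPM in Blm KO, 24.4, 24.1 and 31.6 in the libraries labelled double KO, 40.8, 56.5 and 95 in those labelled Recql KO and 60.8, 51.9 and 35.5 in WT. Every double KO library lay below the other 9 (0.847% of all tested genes did so), and the other 3 groups overlapped one another. Between double KO and Recql KO the log2 fold change was -1.26 ± 0.33 (edgeR adjusted p = 0.0198), a call lost without double KO replicate 1, double KO replicate 2 or Recql KO replicate 3 (edgeR adjusted p = 0.0564, 0.0583 and 0.069). Double KO against WT gave -0.89 ± 0.33 and did not pass (edgeR adjusted p = 0.373).

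The neurofilament subunit genes were barely detected. Nefl, the light subunit, gave 25 counts over the 3 Blm KO libraries, 27 over those labelled double KO, 18 over those labelled Recql KO and 62 over WT, or means of 0.143, 0.165, 0.113 and 0.378 CPM in that order. Each Recql KO and double KO library lay below each WT library, and neither difference passed (Recql KO against WT -1.73 ± 0.63, edgeR adjusted p = 0.0583, and double KO against WT -1.19 ± 0.60, edgeR adjusted p = 0.515). Recql KO against WT passed for Nefl without Blm KO replicate 1 or 3 (edgeR adjusted p = 0.0266 and 0.0357), libraries that enter only through the shared spread. Nefm, the medium subunit, read 3.14, 0.334 and 0.784 CPM in Blm KO, 2.53, 0.896 and 1.42 in the libraries labelled double KO, 4.43, 1.89 and 1.25 in those labelled Recql KO and 2.7, 1.69 and 2.9 in WT. All 4 groups of Nefm overlapped. The annotated spans of Nefl and Nefm overlap on opposite strands, and the strand setting of the counts is not given in the sources used here.

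Ncam1, which encodes the neural cell adhesion molecule, was highest in double KO. It read 198, 221 and 149 CPM in Blm KO, 334, 367 and 354 in the libraries labelled double KO, 333, 283 and 264 in those labelled Recql KO and 216, 268 and 146 in WT. Double KO lay above the other 9 libraries (1% of all tested genes did so), by a narrow margin over Recql KO replicate 1, and Blm KO overlapped WT. Double KO against WT gave 0.74 ± 0.20 on the log2 scale (edgeR adjusted p = 0.201, DESeq2 adjusted p = 0.0237, 0.0237 to 0.471 over all alternatives). For Recql KO against WT the value was 0.48 ± 0.20 (edgeR adjusted p = 0.0959), which passed without WT replicate 2 (0.70, edgeR adjusted p = 0.0282).

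Penk, which encodes proenkephalin, the precursor of the enkephalin opioid peptides, was lowest in double KO. It read 59.1, 24.8 and 65.9 CPM in Blm KO, 7.41, 4.27 and 3.16 in the libraries labelled double KO, 19.9, 17.9 and 32.3 in those labelled Recql KO and 22.2, 9.32 and 29.6 in WT. Double KO lay below the other 9 libraries (0.847% of all genes, as for Stmn2), whereas Blm KO replicate 2 fell inside the ranges of Recql KO and WT. The Blm KO mean of 49.9 ± 22 CPM was 10.1-fold above the double KO mean of 4.95 ± 2.21 (SD, n = 3 each). Penk was lower in double KO than in Recql KO (log2 fold change -2.24 ± 0.50, edgeR adjusted p = 0.0101), and the call held whichever library was left out. Against WT the value was -2.04 ± 0.50, which edgeR did not call (adjusted p = 0.148) and DESeq2 did (adjusted p = 0.00124, with 0.00124 to 0.471 over all alternatives). The choice of Penk set Blm KO against the other columns, and its Blm KO libraries separated only from those labelled double KO. The low double KO values may thus have entered that choice, and tests with double KO are no independent support for Penk.

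Gfra2, which encodes a membrane-anchored receptor for neurturin that signals through RET, had the widest range. It read 92.9, 50.6 and 80.4 CPM in Blm KO, 3.81, 2.49 and 22.3 in the libraries labelled double KO, 5.06, 8.71 and 11.5 in those labelled Recql KO and 3.64, 3.37 and 1.78 in WT. The Blm KO libraries lay above the other 9, double KO replicate 3 lay above all Recql KO and WT libraries, and the other 2 double KO libraries lay within or near the WT range. The Blm KO mean of 74.6 ± 21.7 CPM was 25.4-fold above the WT mean of 2.93 ± 1 (SD, n = 3 each). No tested comparison called Gfra2. The log2 fold change was 1.52 ± 0.72 for Recql KO against WT (edgeR adjusted p = 0.132), 1.70 ± 0.72 for double KO against WT (edgeR adjusted p = 0.43) and 0.18 ± 0.68 for double KO against Recql KO (edgeR adjusted p = 0.869), and the last was -1.43 without double KO replicate 3. Without that library, Recql KO against WT passed (1.52, edgeR adjusted p = 0.0158). Gfra2 is the gene of the set whose expected counts were not whole in any of the 12 libraries, while Map2, Mapt, Stmn2, Nefl and Penk were whole in all.

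Counted together, 3 of the 10 genes were called in Recql KO against WT, all higher, where edgeR called 29.9% of all tested genes (14.2% higher). No gene of the set was called in double KO against WT, where 0.121% of all genes were (0.0739% higher, 0.0471% lower). There 5 of the 10 had an unadjusted edgeR p under 0.05, as did 1605 of all 14876 tested genes. DESeq2 called 3 of the 10, Map2 and Ncam1 higher and Penk lower. It also called more of all genes there than edgeR did, so 0.121% is not the share to set beside these 3. No excess over all genes is claimed for them. Between double KO and Recql KO edgeR called 6, Map2 higher and Map1b, Mapt, Tubb3, Stmn2 and Penk lower, against 24.7% of all genes (13.2% higher, 11.6% lower). The choice of Penk may have used its double KO values, so its call there is not independent of that choice. The median log2 fold change of the 10 was 0.43 in Recql KO against WT, -0.03 in double KO against WT and -0.71 in double KO against Recql KO, beside medians of -0.01, 0.01 and 0.02 over all genes. Libraries did not overlap for 5 of the 10 in Recql KO against WT (4 higher, 1 lower, beside 49.3% of all genes, 23.9% higher and 25.4% lower). They did not overlap for 5 in double KO against WT (2 higher, 3 lower, beside 14.1%, 7.31% higher and 6.82% lower) and for 7 in double KO against Recql KO (2 higher, 5 lower, beside 43.6%, 22.5% higher and 21.1% lower). The 3 comparisons share libraries in pairs, so their counts are not independent.

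The fit of high-Y libraries alone held 1 library per KO label, too few to count calls from. In Recql KO against WT, its log2 fold changes were 1.06 for Map1b, 1.14 for Mapt and 1.02 for Tubb3 (0.90, 1.83 and 1.11 with all 12 libraries). In double KO against Recql KO they were 0.95 for Map2, -0.73 for Map1b, -1.08 for Mapt, -0.54 for Tubb3, -0.77 for Stmn2 and -2.23 for Penk. Each of these was smaller in size than with all 12 libraries. Adding the Y-linked level to the model of all 12 libraries kept the same 3 genes called in Recql KO against WT and the same 6 in double KO against Recql KO, where each label holds 1 high-Y library of its 3. WT holds no library low in Y-linked transcripts, so no comparison with WT could be made within low-Y libraries.

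**Figure D2:**
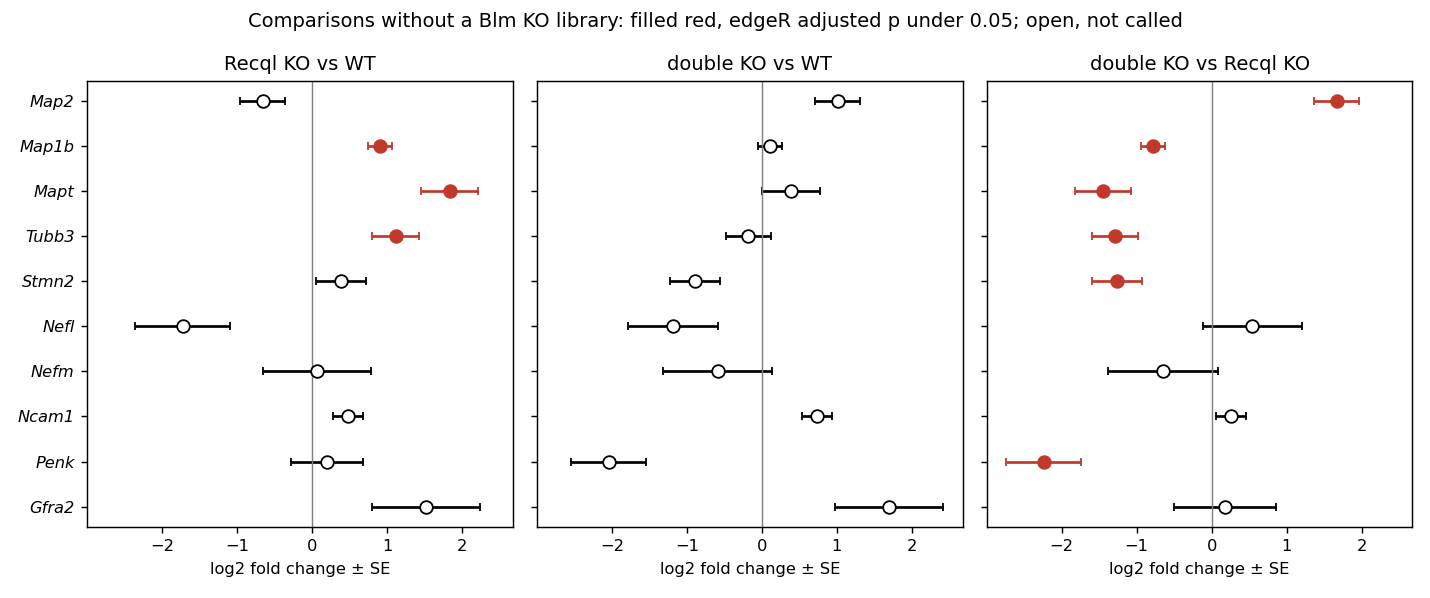
Log2 fold change ± SE of the 10 genes in the 3 comparisons without a Blm KO library, filled red where edgeR's adjusted p was under 0.05. Map1b, Mapt and Tubb3 lie right of 0 in Recql KO against WT, no gene is filled in double KO against WT, and Map2 is the 1 filled gene right of 0 in double KO against Recql KO.

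The comparisons that chose the set are given as values. In Blm KO against WT, the log2 fold change was 2.62 ± 0.31 for Map2, 4.67 ± 0.79 for Gfra2, 1.29 ± 0.48 for Penk and -1.46 ± 0.31 for Tubb3, and the other 6 lay between -1.39 and 0.28. Libraries did not overlap for 3 of the 10, Map2, Gfra2 and Tubb3, beside 24.8% of all genes. In Blm KO against double KO 6 of the 10 did not overlap (26.2% of all genes), with Map2 at 1.61 ± 0.30, Gfra2 at 2.97 ± 0.72 (4.57 without double KO replicate 3), Penk at 3.34 ± 0.52, Stmn2 at 1.17 ± 0.33, Ncam1 at -0.90 ± 0.20 and Tubb3 at -1.28 ± 0.31. In Blm KO against Recql KO 6 did not overlap either (57.2% of all genes), led by Map2 at 3.28 ± 0.32 and Gfra2 at 3.15 ± 0.73 on one side and Tubb3 at -2.57 ± 0.32 on the other. Against all other 9 libraries at once, Blm KO was higher for Map2 and Gfra2 (4.54% of all genes) and lower for Tubb3 (3.54%). Recql KO was higher than the other 9 for Map1b, Mapt and Tubb3 (13.5% of all genes).

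Per kilobase of the longest coding transcript, the scale on which genes may be set beside each other, Map2 led the set in Blm KO at 50.9 CPM per kilobase, ahead of Penk (34.4), Stmn2 (29), Ncam1 (28.8), Map1b (24.7) and Gfra2 (21.5). In WT the order by level was Ncam1 (32), Map1b (26.6), Stmn2 (23.8), Penk (14.1), Tubb3 (13.4), Map2 (8.28) and Gfra2 (0.844). Mapt, Nefl and Nefm stayed below 1 CPM per kilobase in every group. Transcript lengths are those of GENCODE M21 and take no account of which isoform the cells used.

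Relatives of the microtubule genes were read from a list of 20 microtubule-associated proteins that excludes the set, of which 19 passed the filter. In Recql KO against WT 6 rose and 0 fell, beside 14.2% of all genes higher and 15.6% lower, with a list median of 0.13 on the log2 scale beside -0.01 over all genes. Mark1, a kinase that phosphorylates MAP2 and tau, averaged 36 ± 0.55 CPM in the Recql KO group, against 17.5 ± 0.396 in WT (log2 fold change 1.04 ± 0.13, edgeR adjusted p = 0.000491). Camsap2, which caps microtubule minus ends, rose by 0.44 ± 0.07 (edgeR adjusted p = 0.00152). Set against Recql KO, double KO had 0 risen and 4 fallen, Mark1, Camsap2, Mark4 and Map7d1, beside 13.2% of all genes higher and 11.6% lower. In double KO against WT, where 0.121% of all genes were called, none of the list was called, and 3 had double KO libraries all above WT (Mark1 at 0.30, Mark4 at 0.11 and Camsap1 at 0.19, beside 7.31% of all genes). Map4, the most abundant gene of the list and a microtubule-associated protein of many tissues, was level at 556, 545, 542 and 539 CPM in Blm KO, double KO, Recql KO and WT.

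Of 14 tubulin genes 13 passed the filter, and Tuba4a (57.5 ± 7.08 CPM in the Recql KO group, 26.5 ± 5.6 in WT, edgeR adjusted p = 0.0262) and Tubg2, a gamma-tubulin gene, rose in Recql KO against WT, where 14.2% of all genes did. Against Recql KO, 1 tubulin gene was higher in double KO, Tubb2b, at 102 ± 23.5 CPM in double KO and 57.7 ± 1.21 in Recql KO (edgeR adjusted p = 0.0174). Another 4 fell there, among them Tuba8 and Tuba4a, beside 13.2% of all genes higher and 11.6% lower. The abundant tubulin genes Tubb5 and Tuba1a, at 1160 and 786 CPM over all libraries, were called in neither comparison. Low levels in Blm KO were not particular to Tubb3. In Blm KO against WT, given as a description, 12 of the 13 tubulin genes were lower and 1 higher, with a median of -0.31. Libraries did not overlap for 6, all lower, beside 12.1% of all genes. Against Recql KO all 13 were lower in Blm KO, and 9 did not overlap, beside 27.3% of all genes. Tubulin genes are close copies of one another, so the sharing of reads among them is uncertain.

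Among the stathmin relatives of Stmn2, Stmn1 fell in Recql KO against WT, with 48.9 ± 9.86 CPM in Recql KO and 86.4 ± 4.02 in WT (log2 fold change -0.82 ± 0.15, edgeR adjusted p = 0.00336). It was the 1 called of 2 that passed the filter, out of 3 listed, beside 29.9% of all genes. Both were higher in double KO than in Recql KO, as were 13.2% of all genes, and Stmn4, the other, averaged 0.389 CPM over all libraries. Of 8 intermediate filament genes of neural and precursor cells 7 passed the filter. Nes, which encodes nestin of precursor cells, rose in Recql KO (168 ± 8.02 CPM against 68.2 ± 17.3 in WT, edgeR adjusted p = 0.00665). Synm, which encodes synemin, fell in Recql KO (7.53 ± 1.32 CPM against 34 ± 12 in WT, edgeR adjusted p = 0.000487), and so did Prph, the peripherin gene, at levels under 2 CPM. Those 1 higher and 2 lower of 7 stand beside 14.2% and 15.6% of all genes.

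In the GDNF family, 7 of 9 ligand and receptor genes passed the filter, with 1 risen and 1 fallen in Recql KO against WT (14.2% and 15.6% over all genes). Gdnf, the founding ligand, rose (10.8 ± 0.635 CPM in Recql KO, 5.26 ± 1.73 in WT, log2 fold change 1.04 ± 0.22, edgeR adjusted p = 0.00603). Gfra1, the receptor that prefers it, fell (14.3 ± 2.18 CPM in Recql KO, 37.2 ± 17.2 in WT, log2 fold change -1.38 ± 0.39, edgeR adjusted p = 0.0234). The same pair were called between double KO and Recql KO, Gdnf lower (-1.35 ± 0.22, edgeR adjusted p = 0.00212) and Gfra1 higher (2.35 ± 0.40, edgeR adjusted p = 0.00278). There 13.2% of all genes were higher and 11.6% lower. Nrtn, the ligand that GFRA2 prefers, averaged 0.314 CPM in Blm KO, 0.179 in double KO, 0.0562 in Recql KO and 0.277 in WT. Ret, the signalling partner, averaged 5.9 ± 4.96 CPM in Blm KO, 6 ± 4.7 in double KO, 6.87 ± 1.71 in Recql KO and 5.41 ± 2 in WT. The ligand was thus near the limit of detection, and the partner was low in every group.

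Around Ncam1, all 13 listed adhesion relatives and polysialyltransferases passed the filter, with 1 risen and 2 fallen in Recql KO against WT. Those 3 called of 13 stand beside 29.9% of all genes. St8sia2, which attaches polysialic acid to NCAM, averaged 27.6 ± 3.95 CPM in Blm KO, 16.7 ± 2.96 in double KO, 3.29 ± 1.2 in Recql KO and 15.5 ± 2.47 in WT. It fell in Recql KO against WT (log2 fold change -2.23 ± 0.25, edgeR adjusted p = 0.000348) and was higher in double KO than in Recql KO (2.34 ± 0.25, edgeR adjusted p = 0.000273). Chl1, an adhesion relative, fell in Recql KO as well (-3.04 ± 0.55, edgeR adjusted p = 0.00313), and Fgfr1, a receptor that NCAM can engage, rose (0.75 ± 0.15, edgeR adjusted p = 0.00433).

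Among the partners of Penk, 3 of 8 opioid peptide and receptor genes passed the filter and none was called in any tested comparison. Ogfr, the opioid growth factor receptor gene, was level at 82.6, 92.7, 80 and 77 CPM in Blm KO, double KO, Recql KO and WT, and every other gene of that list stayed under 1 CPM. Of 12 genes for prohormone processing and enkephalin breakdown 11 passed, with 3 risen and 3 fallen in Recql KO against WT, beside 14.2% of all genes higher and 15.6% lower. Mme, which encodes the enkephalin-degrading protease neprilysin, averaged 149 ± 27.2 CPM in Blm KO, 44.1 ± 17.9 in double KO, 14.8 ± 5.38 in Recql KO and 104 ± 23.9 in WT. It fell in Recql KO against WT (log2 fold change -2.82 ± 0.36, edgeR adjusted p = 0.000676). Pcsk1, a prohormone convertase gene, rose there (2.56 ± 0.50, edgeR adjusted p = 0.00431) at a level of 1.23 ± 0.257 CPM in Recql KO and 0.206 ± 0.0161 in WT. Ctsl, the cathepsin L gene, rose to 988 ± 40.7 CPM in Recql KO, against 515 ± 25.3 in WT (edgeR adjusted p = 0.00119).

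Several genes of the RE1 silencing complex list were lower in the libraries labelled Recql KO, though not Rest. Of its 13 genes, all of which passed the filter, 0 rose and 5 fell against WT, beside 14.2% of all genes higher and 15.6% lower, with a median of -0.26 beside -0.01 over all genes. Its summed level was 1360 to 1640 CPM in Blm KO, 1240 to 1390 in double KO, 984 to 1060 in Recql KO and 1360 to 1490 in WT. Rest itself averaged 71.6 ± 3.76 CPM in Blm KO, 59.8 ± 3.6 in double KO, 68.5 ± 1.55 in Recql KO and 66.2 ± 2.86 in WT, and neither Rest (log2 fold change 0.05) nor the corepressor gene Sin3a (-0.03) was called in Recql KO against WT. The genes that fell included the phosphatase genes Ctdsp2 (165 ± 21.1 CPM in Recql KO, 386 ± 57.2 in WT, edgeR adjusted p = 0.0013) and Ctdspl (27.8 ± 2.33 and 55 ± 6.34 CPM in the same order, edgeR adjusted p = 0.000679), and the demethylase gene Kdm1a (-0.46 ± 0.07, edgeR adjusted p = 0.00158). Between double KO and Recql KO, 5 were higher and 0 lower, beside 13.2% and 11.6% of all genes.

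Some neuronal markers were close to 0 and others were well detected. Rbfox3, which encodes NeuN, and the synaptic gene Snap25 stayed at or under 0.12 CPM in every library, as did Th and Gad1, the enzyme genes of dopamine and GABA synthesis. In the same list, Nsg1, Uchl1, Eno2 and Celf4 averaged 33.3, 23.8, 16.8 and 14.3 CPM over all libraries, and the synapsin gene Syn1 averaged 7.97. Between 10 and 14 genes of the list exceeded 1 CPM in a library. Of 32 pan-neuronal and synaptic genes 22 passed the filter, and their summed level was 97.5 to 114 CPM in Blm KO, 120 to 122 in double KO, 165 to 175 in Recql KO and 113 to 147 in WT. Against WT, 4 rose in Recql KO, among them Uchl1, a ubiquitin hydrolase gene (44.1 ± 3.19 CPM against 20.4 ± 5.11 in WT), and Celf4, an RNA-binding protein gene (24.5 ± 2.88 against 11.3 ± 1.02). Another 3 fell, among them Eno2, the neuronal enolase gene (11.7 ± 0.586 against 16 ± 2.23 CPM in WT). Those 4 higher and 3 lower of 22 stand beside 14.2% and 15.6% of all genes, and the median of the list was 0.17 on the log2 scale.

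Markers of neural crest, glia and other cells were read the same way. Their calls in Recql KO against WT stand beside 14.2% of all genes higher and 15.6% lower. Of 16 neural precursor and neural crest factors 10 passed, with 1 called in Recql KO against WT (Pax3, higher), and the summed level was 6.48 to 68.8 CPM in Blm KO, 12 to 47.7 in double KO, 17.6 to 54.6 in Recql KO and 25.3 to 43.8 in WT. Of 12 Schwann and glial genes 10 passed and 0 were called in Recql KO against WT, with sums of 125 to 137 CPM in Blm KO, 126 to 197 in double KO, 116 to 145 in Recql KO and 150 to 162 in WT. Fibroblast markers, led by Fn1 and Col1a1, summed to 47500 to 51600 CPM in Blm KO, 42300 to 49400 in double KO, 22200 to 27400 in Recql KO and 33100 to 35800 in WT. Those sums separate all 4 labels except Blm KO and double KO, which overlap. Of 12 fibroblast markers 3 fell and 1 rose in Recql KO against WT, beside 29.9% of all genes called in either direction. The 1 that rose was Dcn, the decorin gene (2.08 ± 0.58, edgeR adjusted p = 0.0232).

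Markers of several other mesodermal and epithelial cells were lower in the libraries labelled Recql KO. Of 8 cartilage markers 7 passed the filter, and 6 fell against WT and 0 rose, with a median of -4.24 on the log2 scale beside -0.01 over all genes. Their sum was 1650 to 1800 CPM in Blm KO, 801 to 1890 in double KO, 234 to 340 in Recql KO and 1120 to 2490 in WT. Col2a1, the collagen gene of cartilage, averaged 40.1 ± 17.3 CPM in Recql KO and 757 ± 449 in WT (edgeR adjusted p = 0.000937). All 6 were higher in double KO than in Recql KO (13.2% of all genes were), and none was called in double KO against WT (0.121% of all genes were). Endothelial markers fell for 4 of 8 that passed, with sums of 24.2 to 44.5 CPM in Blm KO, 16.2 to 21.5 in double KO, 4.52 to 6.31 in Recql KO and 22.4 to 31.8 in WT. Epithelial markers fell for 3 of 7, with sums of 15.2 to 20.9, 16.6 to 38.9, 9.64 to 14.8 and 23.9 to 50.6 CPM in the same 4 groups. None of these endothelial and epithelial markers rose, beside 15.6% of all genes lower and 14.2% higher in Recql KO against WT. Skeletal muscle is a tissue known to express Ncam1 and Nes. Its markers summed to 56.6 to 98, 93.6 to 242, 101 to 123 and 64.1 to 123 CPM in those groups, and of 8 that passed 3 fell (Des, Actc1 and Myh8) and 0 rose in Recql KO against WT, with a median of -1.10. Acta1, not called, made up most of the Recql KO sum at 94.7 ± 5.53 CPM, against 38.8 ± 19.8 in WT. Macrophage and blood markers summed to 4.76 to 18.4 CPM over all libraries, with 1 risen and 2 fallen of 8, and smooth muscle and pericyte markers had 0 risen and 2 fallen of 9. These lists moved in the same comparisons as the calls of the set, and the part of cell composition in the values of the set was not tested.

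**Figure D3:**
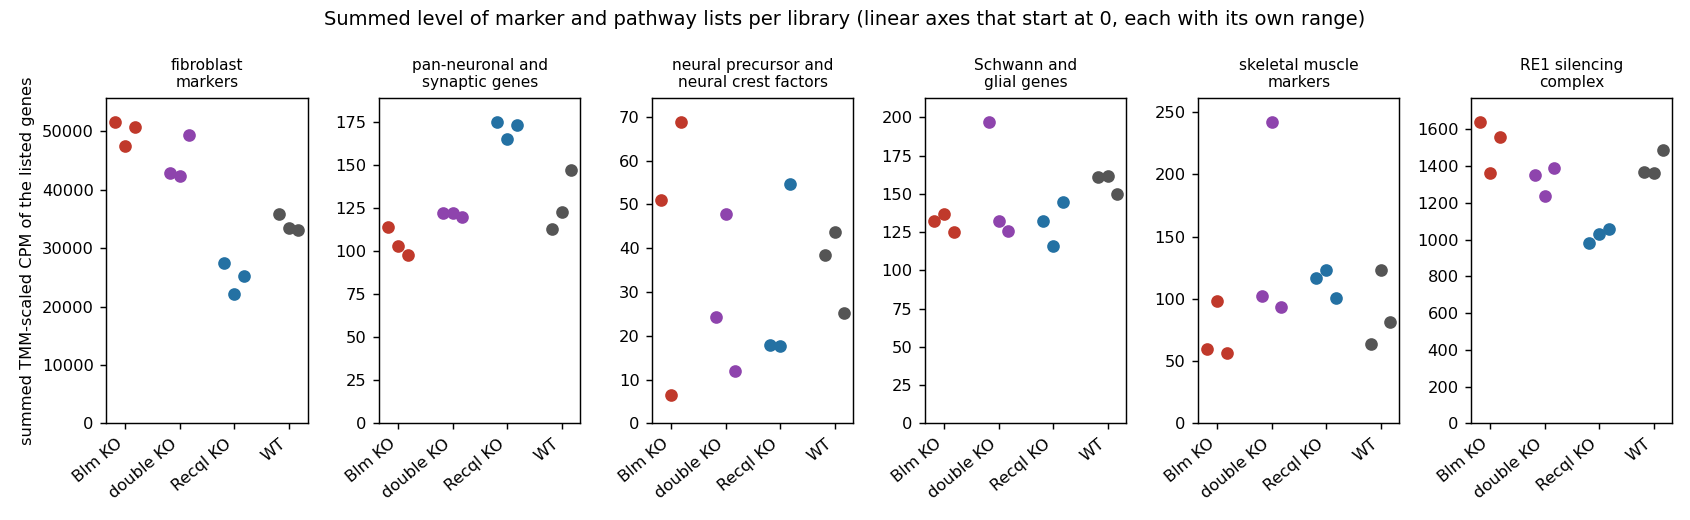
Summed TMM-scaled CPM of 6 marker and pathway lists in each library, on linear axes that start at 0 and differ in range. Fibroblast sums of Blm KO (47500 to 51600 CPM) overlap those of double KO (42300 to 49400), and they are lowest in the libraries labelled Recql KO (22200 to 27400), where the pan-neuronal sum is highest (165 to 175 CPM) and the RE1 silencing sum lowest (984 to 1060 CPM).

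Levels over the 12 libraries were compared between genes as a description, since libraries of a label share whatever sets that label apart and Blm KO values chose 3 of the genes. Within the set, Map2 and Tubb3 ran most nearly opposite (Pearson r = -0.914, Spearman rho = -0.923 on log2 levels), and Map1b with Tubb3 ran most alike (r = 0.805). Map2 and Gfra2 gave r = 0.72 and rho = 0.517, and Ncam1 and Penk gave r = -0.805. The search for like genes covered 12020 genes averaging 1 CPM or more and left out predicted genes with Gm or Rik symbols. Those closest to Map2 were Uggt2 (r = 0.963), Me3 (0.952), Arl2 (0.946), Lyplal1 (0.944) and AI429214 (0.943). Uggt2, a gene of glycoprotein folding in the endoplasmic reticulum, averaged 109 CPM in Blm KO, 68.4 in double KO, 24.4 in Recql KO and 34.5 in WT, the order of Map2. Among the closest to Penk were Foxo1, a forkhead factor gene (0.951), Glcci1 (0.924), Kcnn4 (0.922) and Sik2 (0.919). Closest to Gfra2 were the pseudogene Tmem181b-ps (0.944), Cdk20 (0.927), Zfp398 (0.923), Tmco4 (0.917) and Ssc5d (0.915).

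**Figure D4:**
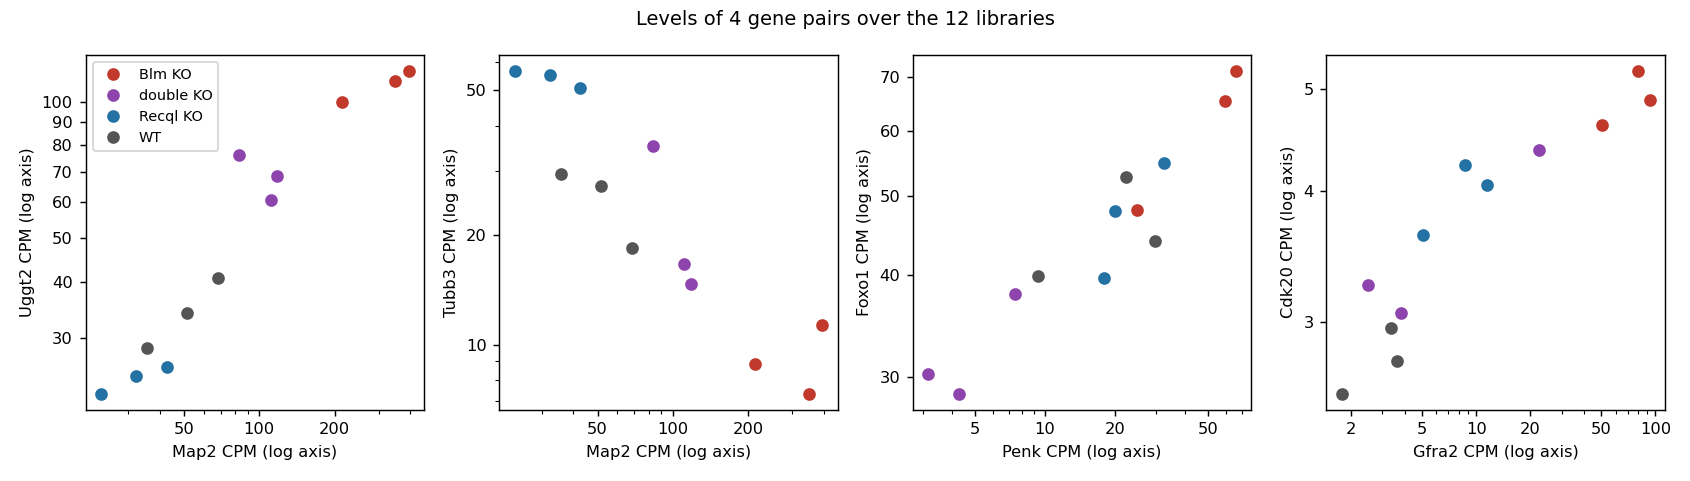
Levels (CPM, both axes log) of 4 pairs of genes in the 12 libraries, coloured by label. Uggt2 climbs with Map2 (r = 0.963), Tubb3 runs against Map2 (r = -0.914), Foxo1 climbs with Penk (r = 0.951) and Cdk20 with Gfra2 (r = 0.927).

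The 10 genes lie on 8 chromosomes of build mm10, with Nefl, Nefm and Gfra2 on chromosome 14. Map2 spans chr1:66175273-66442583 on the plus strand, Penk spans chr4:4133531-4138819 on the minus strand and Gfra2 spans chr14:70890120-70979838 on the plus strand. Tested genes that start within 1 Mb of them were read for comparison. The 7 neighbours of Map2 lay between -0.18 and 1.30 in Blm KO against WT (median 0.02), beside 2.62 for Map2. The value of 1.30 belonged to Myl1 at under 0.3 CPM in every group mean, and the 1 neighbour whose libraries did not overlap was Lancl1 at 0.59. The 7 neighbours of Penk lay between -0.51 and 0.65 (median 0.02), beside 1.29 for Penk, and those with no overlap were Plag1 at 0.65 and Rps20 at 0.22. For Gfra2 the 19 neighbours lay between -0.35 and 0.52 (median 0.12), beside 4.67, and libraries of 1 did not overlap. These counts without overlap stand beside 24.8% of all genes in Blm KO against WT. None of these neighbours was called in double KO against WT, where 0.121% of all genes were. In Recql KO against WT, 4 of 7 near Map2, 1 of 7 near Penk and 5 of 19 near Gfra2 were called, beside 29.9% of all genes.

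**Figure D5:**
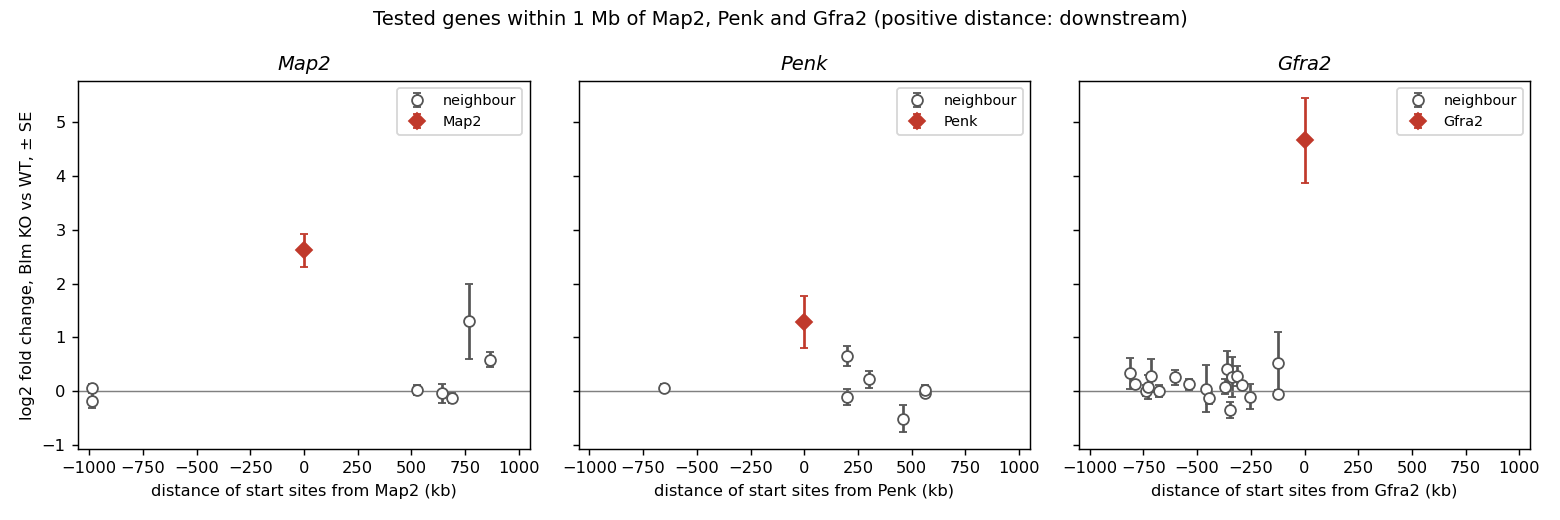
Log2 fold change ± SE in Blm KO against WT of tested genes by the distance of their start site from Map2, Penk or Gfra2 in kilobases, positive downstream. The neighbours lie between -0.51 and 1.30, below Map2 at 2.62, Penk at 1.29 and Gfra2 at 4.67 in their panels.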

How the data were processed

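Polyadenylated RNA of primary fibroblasts was sequenced from KAPA stranded libraries, per the labels' protocols. Per the submitters' processing notes, Bowtie2 2.1.0, RSEM 1.2.15 and mm10 were used. The deposited table holds RSEM's expected counts by gene, and 17.4% to 20.2% of them in a library were not whole (tolerance 0.001). Which annotation, strand setting and filters applied is not given in the sources used here.

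Rounded values went into edgeR 4.0.16 under R 4.3.3 (filterByExpr, trimmed mean of M values scaling, robust quasi-likelihood F test, 1 mean per genotype over all 12 libraries, 8 residual degrees of freedom, biological coefficient of variation 0.209), with Benjamini-Hochberg adjustment over 14876 genes and calls at an adjusted p under 0.05. SE is that of the model. Alternatives included DESeq2 1.42.0, other scaling and filters, fits of 2 groups, a replicate block, Y-linked levels, and leaving out each library. The steps were tested on simulated data. Totals of 47758552 to 59296354 counts set the precision, and the floor of 3 counts covers counting error only.

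The genes and lists were chosen with earlier results of these data known. Named genes were the 10 genes, Blm, Recql, the 5 most alike to Map2, Penk and Gfra2 by Pearson r of log2(CPM + 0.5), up to 4 called and 2 abundant genes of each list, and neighbours within 1 Mb, of which a part is printed. Th, Gad1, Rbfox3, Snap25, Syn1, Ret, Nrtn, Rest, Sin3a and Dcn are outside that rule and were named after their values were seen. Xist is also outside the rule and was read beside the Y-linked transcripts. Positions came from GENCODE M21 and promoters from RefSeq GRCm38.p6.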

Additional observations from a re-analysis of the deposited data

Results flagged for a closer look

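Gfra2 was singled out because 2 comparisons of the same kind pointed in opposite directions in every library. All 3 libraries labelled Recql KO lay above all 3 WT libraries (log2 fold change 1.52), while all 3 libraries labelled double KO lay below all 3 Blm KO libraries, with means of 9.54 and 74.6 CPM in that order. The difference between these changes was not tested, since Blm KO values chose Gfra2, and neither label for Recql loss went with a lower Recql transcript.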

How the results depend on the processing

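Relative log expression scaling and dropping the low-count filter left the number of genes called in each comparison within 1.5 times, and a filter of CPM above 1 in 3 libraries removed Mapt and Nefl from testing. In Recql KO against WT, 3 genes of the set were called, beside 29.9% of all genes. With the replicate number as a block or with the groups compared only, 5 were called. Both of these fits also called more of all genes there than the main fit did. The blocked fit added Nefl (edgeR adjusted p = 0.0294) and Ncam1 (0.0379). Same-numbered libraries did not deviate together throughout (r of -0.127 to 0.305 over 18 pairs, 7 over 0.1), so the numbers are not shown to pair libraries, and the block left 0 calls in double KO against WT and 6 in double KO against Recql KO. DESeq2 called 3 in double KO against WT, where it also called more of all genes than edgeR did. The fit of libraries high in Y-linked transcripts, with 1 library per KO label, gave Map2 at 0.95 in double KO against Recql KO, beside 1.67 with all libraries. It gave Map2 at 2.05 in Blm KO against WT and 2.33 in Blm KO against Recql KO. Leaving out each library gave 2 to 4, 0 to 0 and 4 to 6 calls of the set in the 3 tested comparisons. The number of all genes called also differed with the library left out. Over the same fits Map2 lay at 2.41 to 2.87, 3.08 to 3.51 and 1.43 to 1.83 in Blm KO against WT, Recql KO and double KO.

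Values that changed sign were all uncalled. With libraries high in Y-linked transcripts, they were Stmn2 (-0.28) and Penk (-0.03) in Recql KO against WT, Tubb3 (0.48) and Gfra2 (-0.24) in double KO against WT, and Nefl (-0.25) and Gfra2 (-1.03) in double KO against Recql KO. With the block, they were Nefm (-0.13) in Recql KO against WT and Gfra2 (-0.12) in double KO against Recql KO, and with the Y-linked covariate Nefm (0.37) in double KO against WT. Leaving out 1 library moved the sign in Recql KO against WT for Stmn2 (-0.02 to 0.62, below 0 without Recql KO replicate 3), Nefm (-0.62 to 0.38, below 0 without Recql KO replicate 1 or WT replicate 2) and Penk (-0.15 to 0.58, below 0 without Recql KO replicate 3 or WT replicate 2). It did so in double KO against WT for Map1b (-0.03 to 0.21, below 0 without double KO replicate 2 or WT replicate 3) and Tubb3 (-0.67 to 0.04, above 0 without double KO replicate 3). In double KO against Recql KO it did so for Nefm (-1.13 to 0.03, above 0 without Recql KO replicate 1) and Gfra2 (-1.43 to 0.63, below 0 without double KO replicate 3 or Recql KO replicate 1). The cause of these changes was not tested. Depth limits Nefl and Mapt, which had under 70 counts in every library.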
